A study of Homo sapiens with 12 samples.

Results

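Among the H3K4me3 peaks of RWPE-1 cells, 1236 touched both H3K27ac and H3K27me3. RWPE-1 is an established line of normal prostate epithelium, made immortal with HPV18 (human papillomavirus 18) and grown here in serum-free keratinocyte medium with bovine pituitary extract and EGF. These doubly marked peaks were selected on measured peak positions: an H3K4me3 peak on chromosomes 1 to 22 had to share 1 base or more with a peak of each of the 2 marks. The 1236 were 4.51% of 27415 H3K4me3 peaks on these chromosomes (95% Wilson interval 4.27% to 4.76%). They made up 7.24% of the H3K4me3 peaks that touched H3K27ac and 29.5% of those that touched H3K27me3. Of all H3K4me3 peaks, 62.2% touched H3K27ac and 15.3% touched H3K27me3, and as the choice used these contacts nothing is read from them. The series held 12 libraries of cells for which the labels name no treatment: ChIP-seq (chromatin immunoprecipitation and sequencing) for 5 histone marks in 2 replicates, besides a DNase and an input library that were not analysed here. Each mark was deposited as 1 peak list for its 2 replicates, so no value has an error between replicates and no test over replicates exists. The lists hold no read counts, so depth is unknown. Intervals on shares cover counting error over peaks only, and peaks are not replicates.

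H3K4me3 marks promoters, mostly those with CpG islands. Acetylation of lysine 27 on the same histone accompanies active promoters and enhancers, and trimethylation of that lysine by Polycomb repressive complex 2 accompanies repression. A promoter with H3K4me3 and H3K27me3 is called bivalent and is typical of developmental regulators that are silent or lowly expressed. The lysine at position 27 of 1 histone tail is either acetylated or trimethylated, never both. A peak list made from many cells cannot tell whether the 2 marks sit on different tails of 1 nucleosome, on the 2 alleles or in different cells, and this was not tested. H3K36me3 is laid down over transcribed gene bodies and H3K4me1 flanks active promoters and marks enhancers. Neither of the latter was used to choose the peaks.

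Because the rule asked for only 1 base, the peaks nearest to it were examined. The smallest overlaps were 2 bases of H3K27me3 at chr14:90678620-90679200 and 6 bases of H3K27ac at chr10:5288426-5289089 (hg19), both in weak H3K4me3 peaks with scores of 59.7 and 66.3. The score, deposited with each peak, was read as -10 times log10 of the caller's p-value. Just outside the rule, the peak at chr7:90892460-90895402 had an H3K27me3 peak that abutted it with no shared base, and the one at chr17:74067485-74069564 was 3 bases from one. Few peaks were this close. In 67 of 1236 (5.42%) the smaller overlap was under 200 bases, and 76 of 18785 peaks with only 1 of the marks had the other within 200 bases.

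The doubly marked peaks had a median width of 1880 bases (quartiles 1440 and 2411). Their share of all H3K4me3 peaks was 0.957% below 1000 bases, 7.46% from 1000 to under 2000, 6.62% from 2000 to under 3000 and 4.96% at 3000 bases or more. By chromosome the share ran from 2.47% on chromosome 6 (40 of 1622) to 6.75% on chromosome 17 (92 of 1363). The 1236 peaks lay in 1192 distinct H3K27me3 domains, which are runs of H3K27me3 peaks with no gap above 5 kb between them, and 81 shared a domain with another doubly marked peak. Most of them are therefore separate loci.

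Within the H3K4me3 peak, the 2 marks usually shared bases. They shared at least 1 base in 1159 peaks, or 93.8% (92.3% to 94.99%), at least 500 bases in 854 (69.1%) and at least 1000 bases in 400 (32.4%). The median overlap was 756 bases (quartiles 397 and 1141). As a share of the less extensive mark in each peak, the overlap had a median of 94.9% (quartiles 71.3% and 100%). In 522 peaks (42.2%) the less extensive mark lay wholly within the other: H3K27me3 within H3K27ac in 291, and H3K27ac within H3K27me3 in 244, the 13 peaks covered from end to end by both counting in each. Summed over all 2506264 bases of these H3K4me3 peaks, 40.4% carried both marks, 34.6% H3K27ac alone, 18.9% H3K27me3 alone and 6.05% neither. With median coverages of 80.9% for H3K27ac and 61.6% for H3K27me3, many peaks had no room for both marks without overlap. Whether the marks overlapped more than their extents alone would give was not tested.

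In the deposited lists H3K27ac was the more extensive mark, although not in every peak. It covered more bases than H3K27me3 in 757 peaks, or 61.2% (58.5% to 63.9%), fewer in 466 (37.7%) and as many in 13. Its median coverage of the H3K4me3 peak was 80.9% (quartiles 63.2% and 93.6%), against 61.6% (35.6% and 90.4%) for H3K27me3. Complete cover was the more common for H3K27me3, which filled 189 of the peaks from edge to edge (15.3%), than for H3K27ac, which filled 151 (12.2%). H3K27ac covered at least 50% of the peak in 1064 cases and H3K27me3 in 736. The scatter of coverage shows that the values fill much of the square and crowd along its top and right borders.

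**Figure D1:**
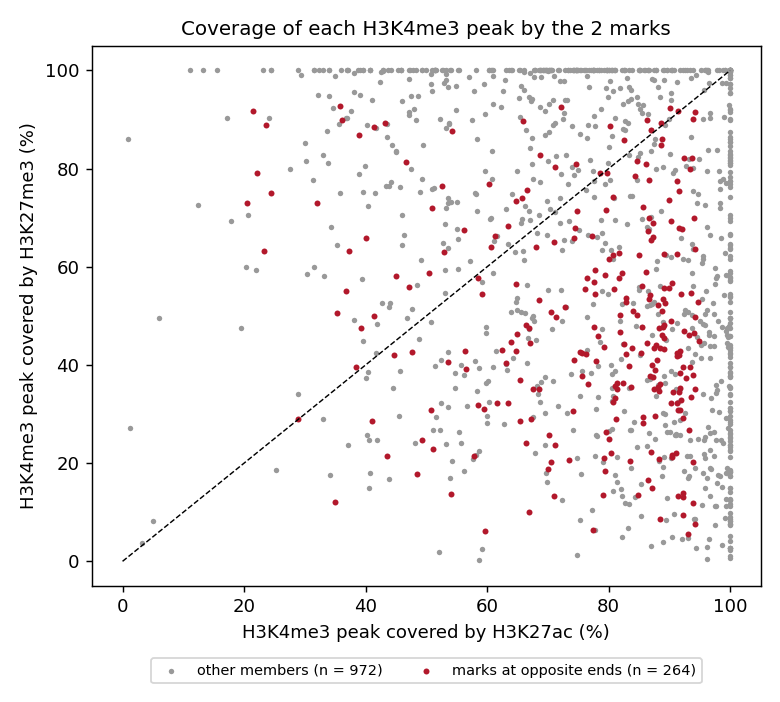
Each point is 1 of the 1236 doubly marked H3K4me3 peaks, with the percentage of its bases covered by H3K27ac on the x axis and by H3K27me3 on the y axis, both linear. The dashed line marks equal coverage: 757 points lie below it, and the 264 peaks with the marks at opposite ends are in red.

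Opposite ends were the arrangement of about 1 peak in 5. Each end was taken as the outer 10% of the H3K4me3 peak and given to a mark that covered at least 50% of it. One end had H3K27ac without H3K27me3 and the other H3K27me3 without H3K27ac in 264 peaks, or 21.4% (19.2% to 23.7%). Even there the marks met in the middle: 222 of the 264 shared bases, with a median overlap of 536 bases, and 42 shared none. H3K27ac lay towards the lower coordinate in 127 of the 264 (48.1%, 42.1% to 54.1%). In the other layouts, H3K27me3 held both ends around a more central H3K27ac in 184 peaks (14.9%), and H3K27ac held both ends around a more central H3K27me3 in 77 (6.23%). Both marks reached both ends in 57. One end carried both marks and the other only H3K27ac in 159, or only H3K27me3 in 130. The remaining 365 had an end with neither mark, and in 185 of these the other end was H3K27me3.

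**Figure D2:**
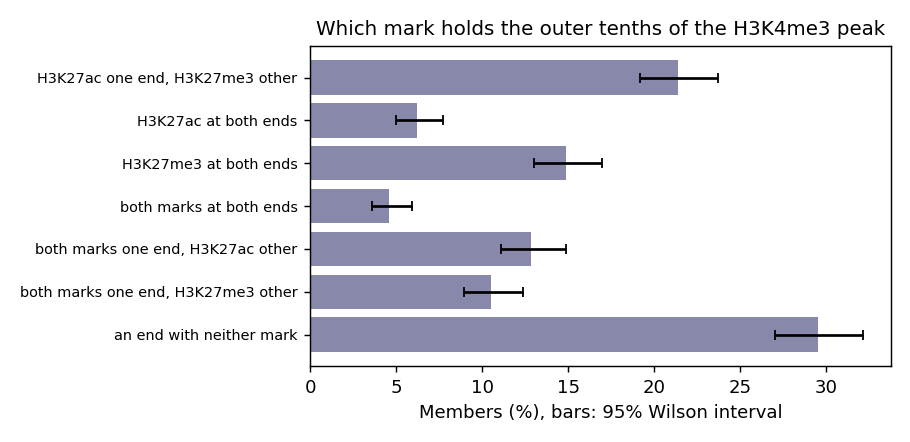
Bars give the percentage of the 1236 doubly marked peaks in each arrangement of the 2 marks over the outer 10% at each end, and the lines are 95% Wilson intervals. The opposite-end class stands at 21.4% and the class with an unmarked end at 29.5%.

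The 77 peaks whose marks shared no base had a median width of 1787 bases, against 1880 for all doubly marked peaks. They were 12 of 101 (11.9%, 6.93% to 19.6%) below 1000 bases and 5 of 147 (3.401%, 1.46% to 7.71%) at 3000 bases or more. Their medians were 1019 bases of H3K27ac, 417 of H3K27me3 and 285 of neither. In 42 of the 77 (54.5%) the marks held opposite ends. Their best H3K27me3 peak had a median score of 107, against 309 in the peaks whose marks shared bases, while the H3K27ac scores were close (160 and 179). Over all doubly marked peaks the median was 1070 bases of H3K27me3. A score grows with peak width, so the lower H3K27me3 score is a description only. The opposite-end share varied little with width, at 21.8% below 1000 bases and 23.8% at 3000 bases or more.

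Both marks scored lower here than at H3K4me3 peaks that carried only 1 of them. The scores belong to the 2 lists that the choice of peaks used, so they are descriptions only. The highest-scoring H3K27ac peak at a doubly marked peak had a median score of 178 (quartiles 93.0 and 420), against 1485 (597 and 2797) at the 15825 peaks with H3K27ac only. The highest-scoring H3K27me3 peak had a median of 295 (114 and 839), against 1152 (206 and 2818) at the 2960 peaks with H3K27me3 only. The gap was also present within classes of H3K4me3 peak width, although the widths of the scored H3K27ac and H3K27me3 peaks were not matched. From 2000 to under 3000 bases the medians were 274 against 1780 for H3K27ac and 415 against 2698 for H3K27me3. A score grows with depth and with peak width, so it ranks peaks within 1 list, and the 2 marks' scores are not compared with each other.

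Peaks in which 1 mark dominated differed from each other in H3K36me3 nearby. They also differed in mark scores and domain size, which the definition of these sets partly fixes. H3K27ac covered at least 2 times the bases of H3K27me3 in 363 peaks, and the reverse held in 93. In the first set the best H3K27ac peak had a median score of 400 and the best H3K27me3 peak 113. In the second set these were 77.6 and 1493. H3K36me3, which the choice of peaks did not use, lay within 20 kb of 48.8% (43.7% to 53.9%) of the first set, 36.5% (33.2% to 39.98%) of the 780 between and 24.7% (17.1% to 34.4%) of the second. The H3K27me3 domain covered a median of 1151 bases in the first set, 2996 between and 5834 in the second. Domain bases usually include the H3K27me3 bases that define the sets, and a score grows with peak width. The score and domain values are therefore descriptions only. H3K4me1 touched 51.0% (45.8% to 56.1%) of the first set, 36.9% (33.6% to 40.4%) between and 38.7% (29.4% to 48.9%) of the second, against 50.7% of all H3K4me3 peaks.

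H3K36me3 and H3K4me1 stood between the values of the 2 singly marked groups. H3K36me3 lay within 20 kb of an edge in 60.2% of all H3K4me3 peaks. The share was 39.2% (36.6% to 42.0%) for doubly marked peaks, 80.1% for those with H3K27ac only and 26.99% for those with H3K27me3 only. Where H3K36me3 was near, it was usually on 1 side: 379 of 485 doubly marked peaks (78.1%), against 55.0% with H3K27ac only and 83.7% with H3K27me3 only. Over all H3K4me3 peaks, 33.3% had it on 1 side only and 27% on both sides, and for doubly marked peaks these shares were 30.7% and 8.58%. H3K36me3 touched the H3K4me3 peak itself in 49 cases (3.96%), against 14.9% of all H3K4me3 peaks and 3.01% of those with H3K27me3 only.

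H3K4me1 touched 41.2% of the doubly marked peaks (38.5% to 43.9%), 73.0% of those with H3K27ac only and 21.3% of those with H3K27me3 only. Within widths of 1000 to under 2000 bases the shares were 36.1%, 63.8% and 20.3% in the same order, so the ranking held in that width class. For H3K36me3 within 20 kb the shares at that width were 38.8%, 74.4% and 27.7%. The order was the same in the other width classes, but some intervals of doubly marked and H3K27me3-only peaks overlapped. For H3K4me1 at 3000 bases or more the shares were 50.3% (42.4% to 58.3%) and 43.1% (32.3% to 54.6%). For H3K36me3 below 1000 bases they were 31.7% (23.4% to 41.3%) and 26.8% (24.3% to 29.5%). When only peaks with a score of at least 100 were used in every list, H3K4me1 touched 23.8% of the 665 doubly marked peaks left. That filter cut the H3K4me1 list too, and no share of the other groups is given under it. The 23.8% is therefore not comparable with the shares above.

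The 2 sides of a doubly marked peak differed in a mark that the rule did not use. Each peak was oriented by the mean position of its H3K27me3 bases relative to that of its H3K27ac bases, which was possible for 1223 of 1236. The distance between these positions had a median of 18.3% of the peak width. H3K36me3 lay within 20 kb on the H3K27ac side only in 236 peaks, or 19.3% (17.2% to 21.6%), and on the H3K27me3 side only in 140, or 11.4% (9.78% to 13.4%). It was on both sides in 105 and on neither in 742. Of the 376 with H3K36me3 on 1 side, 62.8% (57.8% to 67.5%) had it beside the acetylated end. Where H3K27ac covered at least 2 times the bases of H3K27me3, this was 89 of 127 (70.1%, 61.6% to 77.4%). It was 136 of 229 (59.4%, 52.9% to 65.5%) where neither mark dominated. Where H3K27me3 dominated, it was 11 of 20 (55.0%, 34.2% to 74.2%), too few to show an asymmetry. Over all 1223 oriented peaks, H3K36me3 covered 3.53% of the bases at 1 to 2 kb on the H3K27ac side and 0.900% on the other. At 10 to 20 kb the values were 6.08% and 3.61%. H3K36me3 covered 3.76% of the chromosomes as a whole. The H3K27me3 side was below that level at each distance up to 10 kb and, slightly, at 10 to 20 kb. The H3K27ac side was also below it at 0 to 1 kb (2.32%) and 1 to 2 kb, and close to it at 2 to 5 kb (3.98%). A mean over whole chromosomes is a coarse level for the flanks of H3K4me3 peaks, and flank values of other H3K4me3 peaks are not given.

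The asymmetry was larger where the 2 marks were farther apart. With an offset under 10% of the width, 67 of 124 peaks with 1-sided H3K36me3 (54.0%, 45.3% to 62.6%) had it on the H3K27ac side. With 10% to under 30%, 66 of 108 did (61.1%, 51.7% to 69.8%), and with 30% or more, 103 of 144 did (71.5%, 63.7% to 78.3%). H3K4me1 within 1 kb of the edge followed the same order. On the H3K27ac side were 45 of 102 (44.1%, 34.9% to 53.8%), 78 of 135 (57.8%, 49.3% to 65.8%) and 123 of 160 (76.9%, 69.8% to 82.7%) of the peaks with H3K4me1 on 1 side. For both marks, the intervals of the lowest and highest offsets do not overlap. Those of neighbouring classes overlap, except for H3K4me1 between the middle and the highest class. Taking H3K4me1 within 1 kb on either side, 43.5% of doubly marked peaks had it, against 59.3% of all H3K4me3 peaks.

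**Figure D3:**
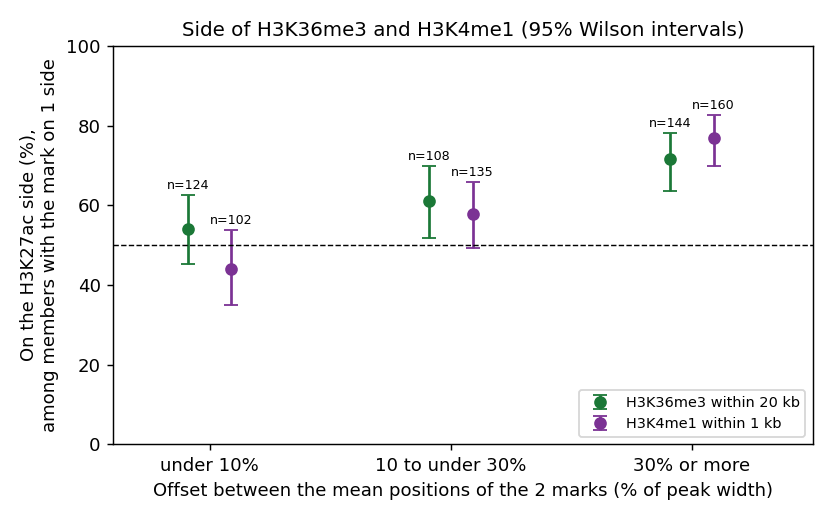
For 3 classes of offset between the marks, points give the percentage on the H3K27ac side among peaks with H3K36me3 within 20 kb, or H3K4me1 within 1 kb, on 1 side, with 95% Wilson intervals and the number of peaks. Values for H3K36me3 go from 54.0% to 71.5% and those for H3K4me1 from 44.1% to 76.9%, and the dashed line is at 50%.

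At the 264 opposite-end peaks, 55 had H3K36me3 on the H3K27ac side only and 25 on the H3K27me3 side only. H3K36me3 covered 9.26% of the bases at 10 to 20 kb on the H3K27ac side and 3.76% on the H3K27me3 side. H3K4me1 within 1 kb was on the H3K27ac side only in 77 and on the H3K27me3 side only in 30. Inside the 1223 oriented peaks H3K4me1 had a shallow dip, from 25.6% of the bases in the first 10% on the H3K27ac side to 17.2% near the middle and 20.9% in the last 10%.

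**Figure D4:**
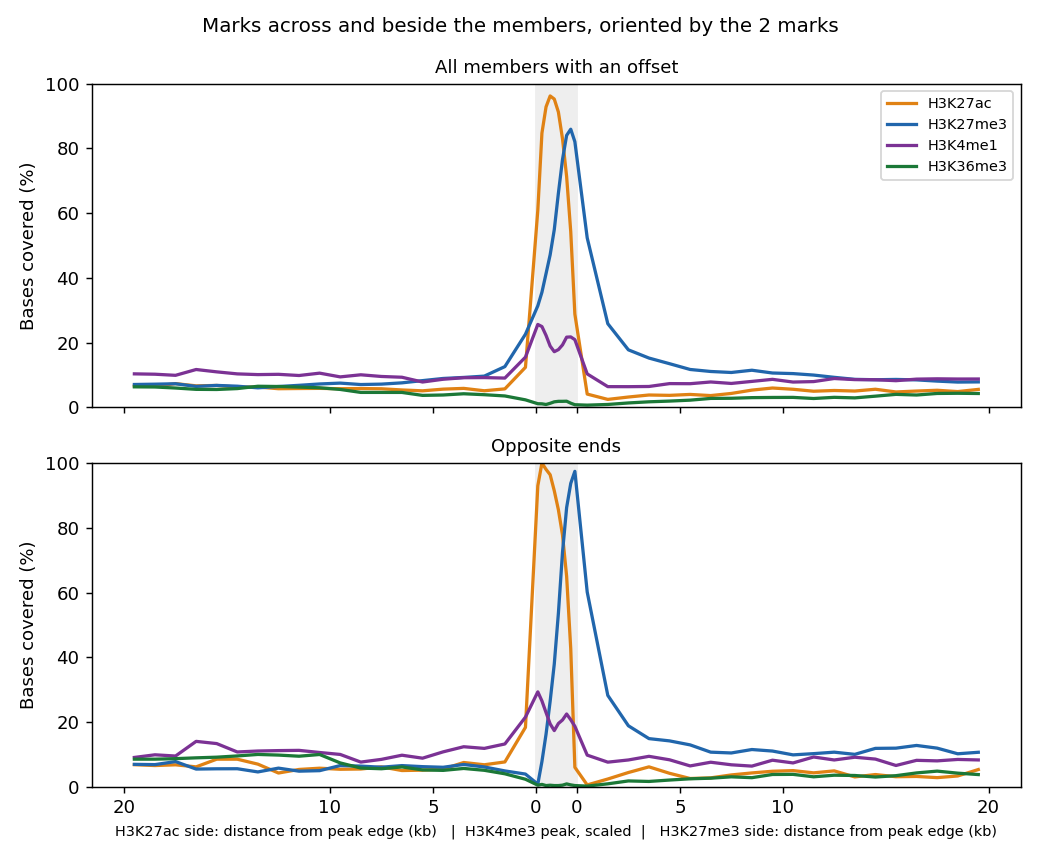
Lines give the percentage of bases covered by each mark, in bins of 1 kb up to 20 kb from the peak edges and in bins of 10% of the width inside the H3K4me3 peak (grey, scaled), with the H3K27ac side to the left. The upper panel holds 1223 peaks and the lower the 264 opposite-end peaks. H3K36me3 is under 2% inside the peak and higher on the left than on the right, and the curves of H3K27ac and H3K27me3 inside and at the edges follow from the orientation.

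H3K27me3 around these peaks was mostly local. The domain touching a doubly marked peak covered a median of 2578 bases (quartiles 1239 and 5426), against 5404 (2409 and 13284) for peaks with H3K27me3 only. It covered 20 kb or more in 67 cases (5.42%), against 15.3%. In 877 peaks (71.0%, 68.4% to 73.4%) the domain reached under 5 kb beyond the H3K4me3 peak on either side, against 48.6% with H3K27me3 only. A further 190 (15.4%, 13.5% to 17.5%) lay at a domain edge, with the domain reaching at least 5 kb on 1 side and under 1 kb on the other, against 9.86%. Only 72 (5.83%) lay at least 5 kb inside a domain, against 21.96%. These values rest on a list that the choice of peaks used, and on the joining distance: the edge share was 4.77% with gaps of 1 kb and 26.6% with gaps of 20 kb.

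Of the 190 peaks at a domain edge, 52 (27.4%) had H3K36me3 within 20 kb only on the side away from the domain and 18 (9.47%) only on the side of the domain. For the 292 domain-edge peaks with H3K27me3 only, the counts were 47 (16.1%) and 21 (7.19%). The domain lay on the H3K27me3 side of the peak in 147 of the 187 edge peaks that could be oriented, which the orientation partly sets.

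Neighbouring H3K4me3 peaks differed by side as well. Another H3K4me3 peak lay within 20 kb in 367 cases on the H3K27ac side and 356 on the H3K27me3 side (30.01% and 29.1%, against 35% on either side for all H3K4me3 peaks). On the H3K27ac side 54.8% (49.7% to 59.8%) of these neighbours had H3K27ac only and 18.3% (14.6% to 22.5%) H3K27me3 only. On the H3K27me3 side the shares were 39.0% (34.1% to 44.2%) and 33.4% (28.7% to 38.5%). Of all 27415 H3K4me3 peaks, 15825 had H3K27ac only and 2960 H3K27me3 only. Against these, the H3K27ac-only share was not raised on the H3K27ac side and was lower on the other. The H3K27me3-only share was higher on both sides. A long H3K27ac or H3K27me3 peak can touch both the doubly marked peak and its neighbour, so the shares by side are not independent of the orientation.

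The 8 peaks with the most bases shared by the marks had H3K4me3 scores from 1066 to 3100. At chr14:54419230-54423937, H3K27ac covered 4283 and H3K27me3 3754 of 4708 bases, and 3477 carried both, the most of any. A short stretch of H3K36me3 lay 1693 bases from its lower edge. At chr1:201616858-201620200 H3K27ac covered all 3343 bases and H3K27me3 98.4% of them, and no H3K36me3 lay within 20 kb. At chr9:124360324-124363236 H3K27me3 covered the whole peak and H3K27ac 99.2% of it. That peak formed the upper edge of a domain that began at 124343086 and covered 11910 bases. The others of the first 8 were at chr12:111470319-111475574, chr16:65154281-65158075, chr5:92915030-92921875, chr19:14315204-14319219 and chr1:29448118-29451861, with 2764 to 3271 shared bases. H3K36me3 was found within 20 kb of 3 of the 8.

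The clearest opposite-end peaks showed the split directly. At chr4:20252842-20256804 H3K27ac covered 1457 bases at the lower end and H3K27me3 2186 bases at the upper end, with none in common. No H3K4me1 touched the peak and no H3K36me3 lay within 20 kb. At chr17:63554847-63558423 H3K27me3 held 2262 bases at the lower end and H3K27ac 1333 at the upper end, with 18 shared. The best H3K27me3 score there was 3100 and the best H3K27ac score 503. At chr19:46364592-46368466 both were strong, with scores of 1533 for H3K27ac and 1614 for H3K27me3. H3K36me3 covered 14307 of the 20 kb on its acetylated, lower side and 1092 bases on the other. At chr18:60985024-60988415 H3K36me3 covered 6890 bases on the acetylated, upper side and none on the lower.

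The first by rank was a weaker case. At chr20:25839736-25844694 each mark covered over 60% of the peak but the best H3K27ac score was 52.1, close to the lowest in the list. H3K36me3 there lay on the H3K27me3 side, with 2566 bases within 20 kb and none on the other side. The remaining 3 were at chr2:8816576-8819951, chr19:14182753-14186263 and chr19:33791380-33795104. The second of these had H3K36me3 on its acetylated side only, and the other pair had none within 20 kb.

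H3K27ac covered 72.3% or more of each of the 6 widest peaks. The widest doubly marked peak, at chr12:4377765-4385901, was 8137 bases wide and fully inside H3K27ac, with 1035 bases of H3K27me3 in its lower part. H3K36me3 covered 1580 bases of the peak and 16869 of the 20 kb beyond its upper edge, and none within 20 kb below it. At chr2:60775800-60783292 H3K27ac covered 87.0% and H3K27me3 22.4%, at opposite ends. At chr15:37389565-37396065 the shares were 72.3% and 48.9%, and a domain of 18372 covered bases continued 19351 bases beyond the upper edge. The other 3 of the 6 widest were at chr5:92915030-92921875, chr9:102580812-102587211 and chr4:30718056-30724335, where H3K27ac covered 96.7% to 99.9%.

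The 72 doubly marked peaks at least 5 kb inside a domain had best H3K27ac scores with a median of 115 (quartiles 70.2 and 227), against 178 for all doubly marked peaks, and the highest was 3100. The largest domain with such a peak ran from 57673263 to 57998474 on chromosome 20, with 247993 covered bases. It held the peak at chr20:57796690-57797973, where H3K27ac covered 81.9% with a best score of 207. The next were at chr20:61732773-61735048 and chr9:135036296-135039666. Their best H3K27ac scores were 165 and 75.3, and within the other list their best H3K27me3 scores were 611 and 2875. The last 2 of the 5 were at chr1:149297707-149300754, where both marks scored low (90.1 and 112), and chr3:123750976-123753337, with 493 for H3K27ac and 2557 for H3K27me3.

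**Figure D5:**
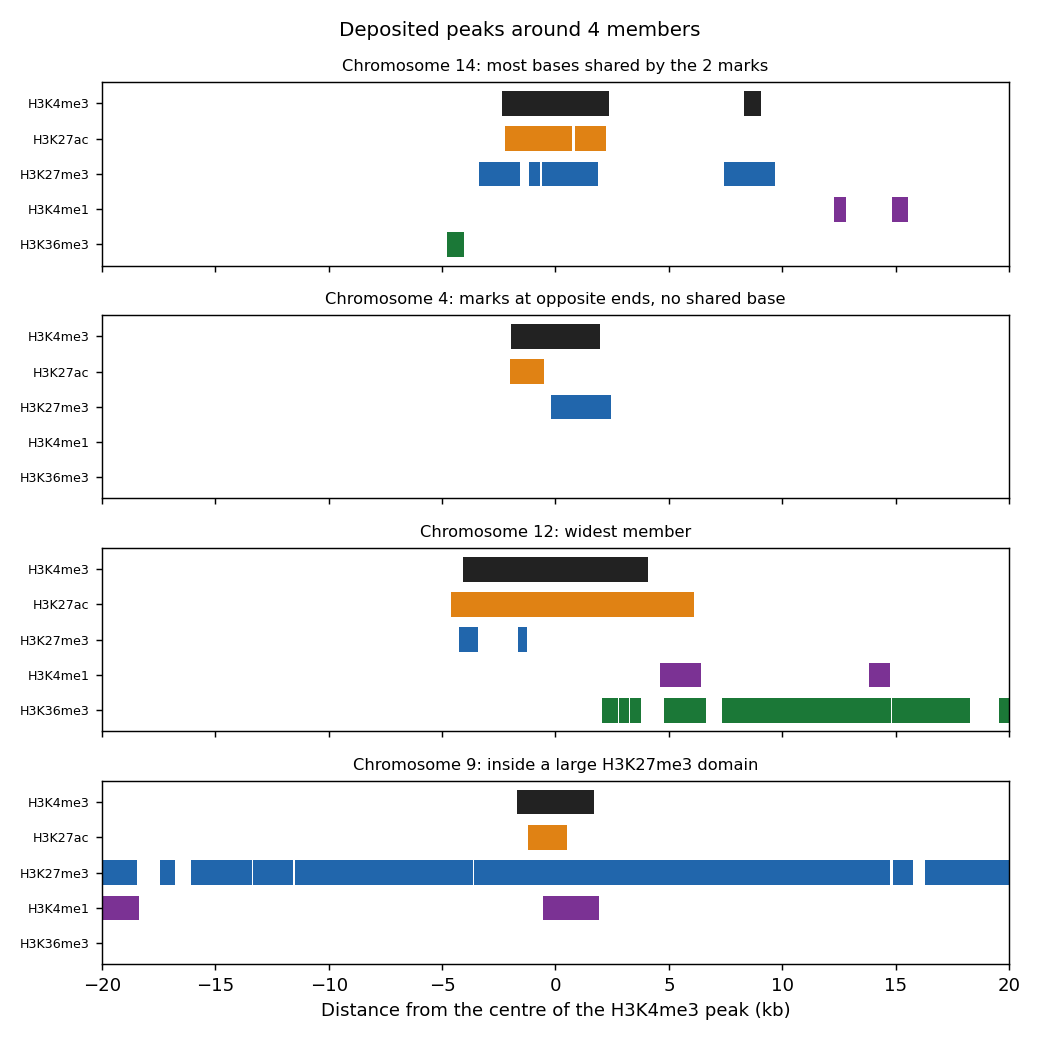
Boxes are the deposited peaks of the 5 marks within 20 kb of the centre of 4 doubly marked H3K4me3 peaks, on a linear axis of distance in kb. From the top they are the peak with most shared bases (3477), an opposite-end peak with no shared base, the widest (8137 bases, with H3K36me3 on 1 side) and 1 covered fully by a large H3K27me3 domain.

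A set of 5 domains, chosen after their values were seen, held 3 or 4 doubly marked peaks each. On chromosome 17 from 46690638 to 46726023, 4 such peaks stood in a domain of 26231 covered bases, and H3K27ac was the more extensive mark in 3 of them. Another 4 stood on chromosome 17 between 77762219 and 77789789, again with more H3K27ac in 3. The domains with 3 each were chr12:54379026-54395049, chr1:149211355-149236741 and chr19:54476440-54507393. The marks shared bases in all 17 of these peaks. Over all doubly marked peaks the marks shared bases in 93.8%, and H3K27ac was the more extensive mark in 61.2%. Nothing particular to the 5 domains is therefore read from these counts.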

How the data were processed

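Both replicates of a mark name 1 combined peak list in the labels' descriptions. CASAVA 1.8.2, Bowtie2, MACS 1.4 and build hg19 are named in the submitters' processing notes. The sources used here do not give how replicates were combined, the control or the calling settings. The deposited score of each peak is not defined by a header and was read, from its lowest value of 50.0, as -10 times log10 of the p-value. Positions are hg19, counted from 1.

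Overlapping peaks of a list were merged, and covered bases, ends, offsets and flanks were computed for each H3K4me3 peak on chromosomes 1 to 22. Between 849 and 5353 peaks per list lay elsewhere and were left out. Intervals are 95% Wilson intervals. No test was run. Named regions were the 8 with most shared bases, the 8 opposite-end peaks with the highest smaller value of bases under 1 mark alone, the 6 widest, the 5 in the largest domains and those nearest the 1-base rule. The peaks and measures were chosen with earlier results of these data known. Best scores, offset classes and 1-mark dominance were added after the values were seen. No hg19 annotation or genome was at hand, so genes and sequences are not given. Base counts and distances were checked against simulated intervals. The software was Python 3.11.15 with scipy 1.17.1, pandas 2.3.3, numpy 2.4.6 and matplotlib 3.10.9.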

Additional observations from a re-analysis of the deposited data

How the results depend on the processing

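No paired analysis was possible because each mark has 1 list for both replicates. With a score of at least 100 in every list, 665 doubly marked peaks were left, and the share at opposite ends was 26.8%, with more H3K27ac 67.1%, with H3K36me3 on the H3K27me3 side only 7.61%, with H3K36me3 within reach 30.5%, at a domain edge 12.3% and touching H3K4me1 23.8%. Among 1-sided H3K36me3 the H3K27ac side then held 116 of the peaks and the other side 50. With at least 200 bases of each mark, the marks shared bases in 95.5%. An outer 25% as the end gave 17.96% at opposite ends. With a flank of 10 kb, H3K36me3 was on the H3K27ac side only in 13.7%, on the other only in 7.85% and on either in 25.1%. With 50 kb these were 23.3%, 15.5% and 61.4%. Taken from opposite-end peaks alone, the H3K27me3 side only held 9.47%. Joining over 1 kb gave 4.77% at a domain edge. Joining over 20 kb gave 26.6% and a median domain of 4118 bases. Adding chromosome X, or, chosen after the data were seen, leaving out chromosomes 9 and 20 or peaks that shared a domain, moved each share by less than its interval. The H3K27ac side held more 1-sided H3K36me3 than the other side in each of these alternatives, at 60.1% to 69.9% where the share was computed. What depth limits is unknown, since the lists hold no counts.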
